A study of Mus musculus with 12 samples.

Results

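The presynaptic release machinery described here is a set of 42 genes out of the 52634 in the deposited count table, taken by symbol from a list that covers the active zone (14 genes), the proteins of the vesicle membrane (12), the synaptotagmins (5), the SNARE proteins and their regulators (9) and the vesicular glutamate transporters (2). All 42 were found in the table, and 40 passed the filter on low counts; Rims1 and Rab3a did not. RNA was sequenced from the dorsal hippocampus of mouse pups at postnatal day 7. Control pups carried the floxed allele of the serotonin transporter gene (SERTfl/fl), and the other genotype, SERTPyramid (its genotype label; the sample titles add a delta sign), is named for loss of the transporter from pyramidal neurons; the sources used here do not name the Cre line. Each genotype had 3 libraries labelled female and 3 labelled male, 12 in all, and each library was made from tissue pooled from 4 mice, so the spread between libraries is a spread between pools. Whether pools shared litters is not stated, and p-values refer to the spread between pools alone. The question the design poses is whether the genotypes differ, and whether they do so alike in both labelled sexes.

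A nerve terminal stores transmitter in vesicles, docks them at a protein scaffold called the active zone, and primes them by assembling a SNARE complex between the vesicle and the plasma membrane. Calcium entering the terminal is sensed by synaptotagmins, and complexins hold the SNARE complex ready until the vesicle fuses; NSF and its adaptor alpha-SNAP then take the complex apart. In the hippocampus the vesicles of most excitatory neurons are filled with glutamate by VGLUT1, encoded by Slc17a7, while VGLUT2, encoded by Slc17a6, is used more by inputs from below the cortex and early in development.

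Promoters are shown for 4 members described below: Pclo and the priming factor Unc13b, which passed a test in opposite directions, the vesicle GTPase Rab3c, which came nearest to doing so, and Bsn, the scaffold partner of Pclo. Each run is the 250 bases before the annotated start, written 5′ to 3′ on the gene's own strand from RefSeq (GRCm38.p6), with every GGGCGG or its reverse complement CCGCCC, the letters of the GC box, in capitals.
Pclo: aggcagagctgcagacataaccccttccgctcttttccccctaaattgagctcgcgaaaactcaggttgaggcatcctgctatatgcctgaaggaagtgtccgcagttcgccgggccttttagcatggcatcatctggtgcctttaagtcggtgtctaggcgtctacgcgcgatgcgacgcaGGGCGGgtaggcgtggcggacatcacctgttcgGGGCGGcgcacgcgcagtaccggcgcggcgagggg
Bsn: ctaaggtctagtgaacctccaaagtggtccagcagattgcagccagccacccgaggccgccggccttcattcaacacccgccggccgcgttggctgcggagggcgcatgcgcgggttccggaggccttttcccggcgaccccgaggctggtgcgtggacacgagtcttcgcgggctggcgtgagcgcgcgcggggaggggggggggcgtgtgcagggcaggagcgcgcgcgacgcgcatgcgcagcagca
Rab3c: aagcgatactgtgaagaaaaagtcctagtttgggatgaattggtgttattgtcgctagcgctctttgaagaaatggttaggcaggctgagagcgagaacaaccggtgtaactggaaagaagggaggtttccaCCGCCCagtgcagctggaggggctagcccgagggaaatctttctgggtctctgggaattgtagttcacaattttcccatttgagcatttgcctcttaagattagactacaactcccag
Unc13b: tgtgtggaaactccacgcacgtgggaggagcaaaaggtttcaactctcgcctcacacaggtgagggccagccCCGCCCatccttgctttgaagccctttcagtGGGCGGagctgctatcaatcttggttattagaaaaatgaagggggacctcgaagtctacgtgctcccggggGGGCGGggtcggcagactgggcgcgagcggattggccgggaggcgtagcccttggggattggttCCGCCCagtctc

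The Pclo window lies at chr5:14514668-14514917 on the plus strand, holds 2 GC boxes and is 61.2% G or C. The Bsn window (chr9:108190384-108190633, minus strand) holds 0 boxes at 71.6% G or C, the Rab3c window (chr13:110280207-110280456, minus strand) 1 box at 47.6%, and the Unc13b window (chr4:43058703-43058952, plus strand) 4 boxes at 60.8%. The Rab3c start used by RefSeq lies inside the longer GENCODE gene model. RefSeq promoters matched 36 of the 42 members by symbol; Rims2, Syn3, Syt4, Syt7, Vamp2 and Snap25 did not match. A GC box on either strand was present in 29 of the 36 (80.6%), beside 61.4% of the 12210 genes tested for expression that had a promoter in the table and 32.7% of all 32851 promoters. A gene counted if any of its listed promoters held a box, while the last share counts each promoter singly. TATAAA was present in 2 members, Rab3b and Sv2b (5.56%, beside 8.26% of the genes tested), and the cAMP response element TGACGTCA in 1, Syn1 (2.78%, beside 2.92%). These matches describe letters in the windows and not binding sites.

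Library totals ranged from 18747249 to 25522347 counts. Xist and Y-linked transcripts contradicted the sex label of 10 libraries out of 12, all but control replicate 1 of each sex, so groups are called by their labels below. Slc6a4, the targeted gene, had 0 to 17 counts per library, with overlapping ranges in the 2 genotypes, and so did not check the genotype labels; the deletion concerns a part of the cells in the tissue. All 10 dentate granule markers and all 13 pyramidal neuron markers had a mean of at least 1 CPM (counts-per-million, here unscaled), and neither list was at 0 in any library. Below, CPM is scaled by the trimmed mean of M values unless called unscaled.

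Levels between genes were compared per length, as RPKM (unscaled CPM divided by exon length in kilobases, mean over all 12 libraries). The members spanned a wide range, with a median of 29.5 RPKM over all 42, Rims1 and Rab3a included. Vamp2, the vesicle SNARE synaptobrevin 2, was highest at 305 ± 17.1 RPKM (SD, n = 12), followed by the complexin Cplx2 at 267 ± 11.1 and by Slc17a7 at 219.7 ± 12.6. Over the 12 libraries the ranges of Vamp2 and Cplx2 overlapped, as did those of Cplx2 and Slc17a7. Next in order came Cplx1 at 189.8 ± 4.35 and Syn1, synapsin 1, a phosphoprotein that tethers vesicles, at 173 ± 6.53.

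Within families the levels were far apart. Vamp1, the close relative of Vamp2, stood at 2.47 ± 0.228 RPKM. Cplx3, a complexin best known from retinal ribbon synapses, stood at 0.536 ± 0.220 RPKM, and Slc17a6 at 13.6 ± 1.07 RPKM. Among the synaptotagmins Syt11, which does not bind calcium, was highest at 134 ± 3.38 RPKM, above the fast calcium sensor Syt1 at 92.0 ± 5.71, while the other fast sensor, Syt2, stood at 1.54 ± 0.131. The active zone genes were lower as a group: the highest, the priming factor Unc13a, reached 37.5 ± 1.96 RPKM, and Unc13b was at 2.96 ± 0.279 and Unc13c at 3.94 ± 0.337. Several of these orders depend on the length used. With the longest annotated transcript in place of all exons, Vamp2 stayed highest at 526 RPKM, but Slc17a7 (385) passed Cplx2 (267), Syp (216) passed Cplx1 (189.8), and Syt1 (159) passed Syt11 (139). By that length Ppfia3 (52.6) passed Unc13a (46.2) as the highest active zone gene, and Unc13b (4.57) passed Unc13c (3.94). Vamp1, Cplx3, Slc17a6 and Syt2 stayed the lower members of their families by either length.

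**Figure D1:**
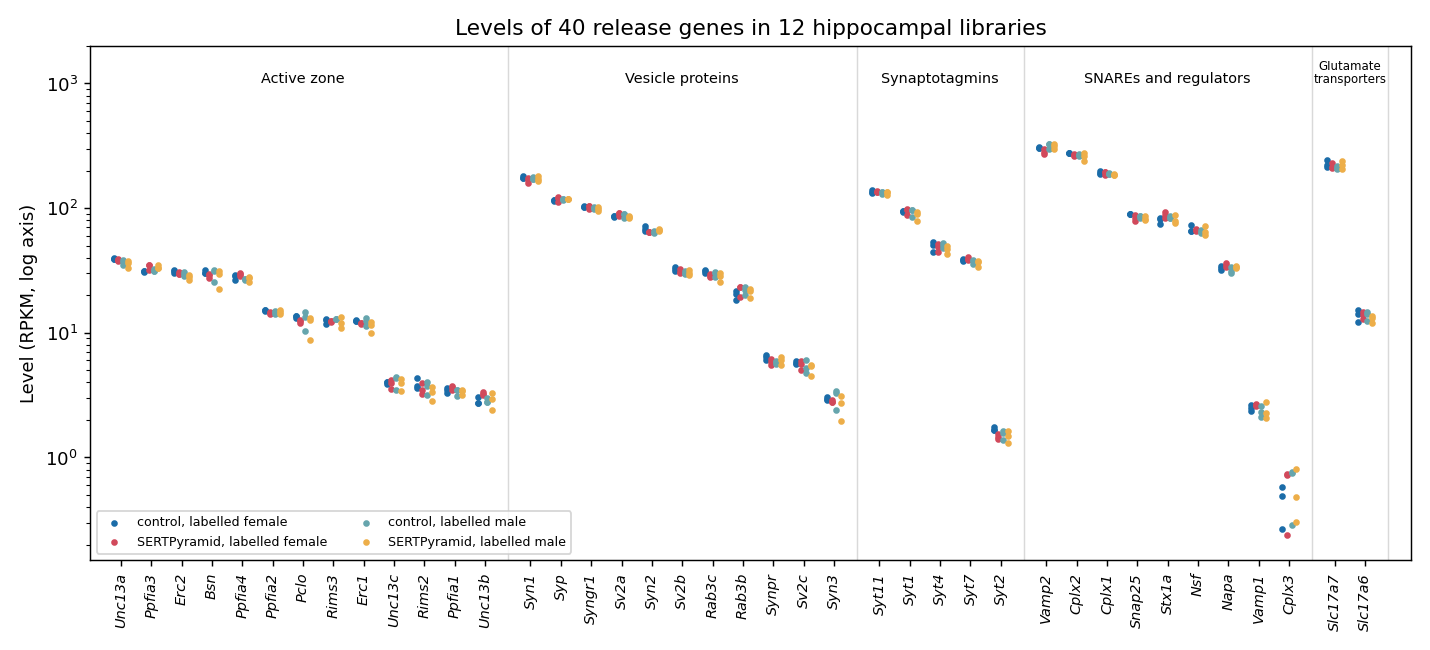
Level of the 40 release genes that passed the filter, in RPKM on a log axis, with 1 point per library coloured by group and genes ordered within their roles. Vamp2, Cplx2, Slc17a7 and Cplx1 lie at the top, Cplx3 (0.536 RPKM on average) at the bottom, and Pclo, Bsn and Syn3 show single low points among the libraries labelled male.

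Genotype differences were small in both labelled sexes. In a fit of all 12 libraries, no member and no gene of the 17631 tested passed an adjusted p of 0.05 for SERTPyramid over control among libraries labelled female (background 0.0%), and DESeq2 and limma voom also called 0 members. At an unadjusted p under 0.05 by edgeR's quasi-likelihood test, 3 of the 40 members were higher and 6 lower, beside 4.32% and 3.72% of all genes. Log2 fold changes ran from -0.22 to 0.31 with a median of -0.04, and 28 of 40 lay below 0, beside a median of -0.00038 and 50.1% below 0 over all genes tested. The members' median was -0.016 without SERTPyramid replicate 1 labelled female.

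The CPM of the 3 SERTPyramid libraries labelled female lay wholly below those of the 3 controls for 12 of 40 members, where 9.38% of all genes did so. They lay wholly above for 2 members, Unc13b and Ppfia3, where 9.48% did so. The 12 lower members were spread over 4 of the 5 roles: Pclo, Bsn, Erc1 and Ppfia2 of the active zone, Syn2, Syn3, Synpr and Rab3c of the vesicle, the sensor Syt2, and Vamp2, Snap25 and Cplx2 of the SNARE group. Without control replicate 1 of both labelled sexes, whose sex transcripts differed from the rest of their groups, 0 members were again called by edgeR in any of the 4 contrasts described here; the members' medians were then -0.05 in libraries labelled female and -0.07 in libraries labelled male, with Pclo at -0.13, Rab3c at -0.12 and Unc13b at 0.15 in the former. In bulk tissue, fewer cells of a type and less RNA per cell cannot be told apart.

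**Figure D2:**
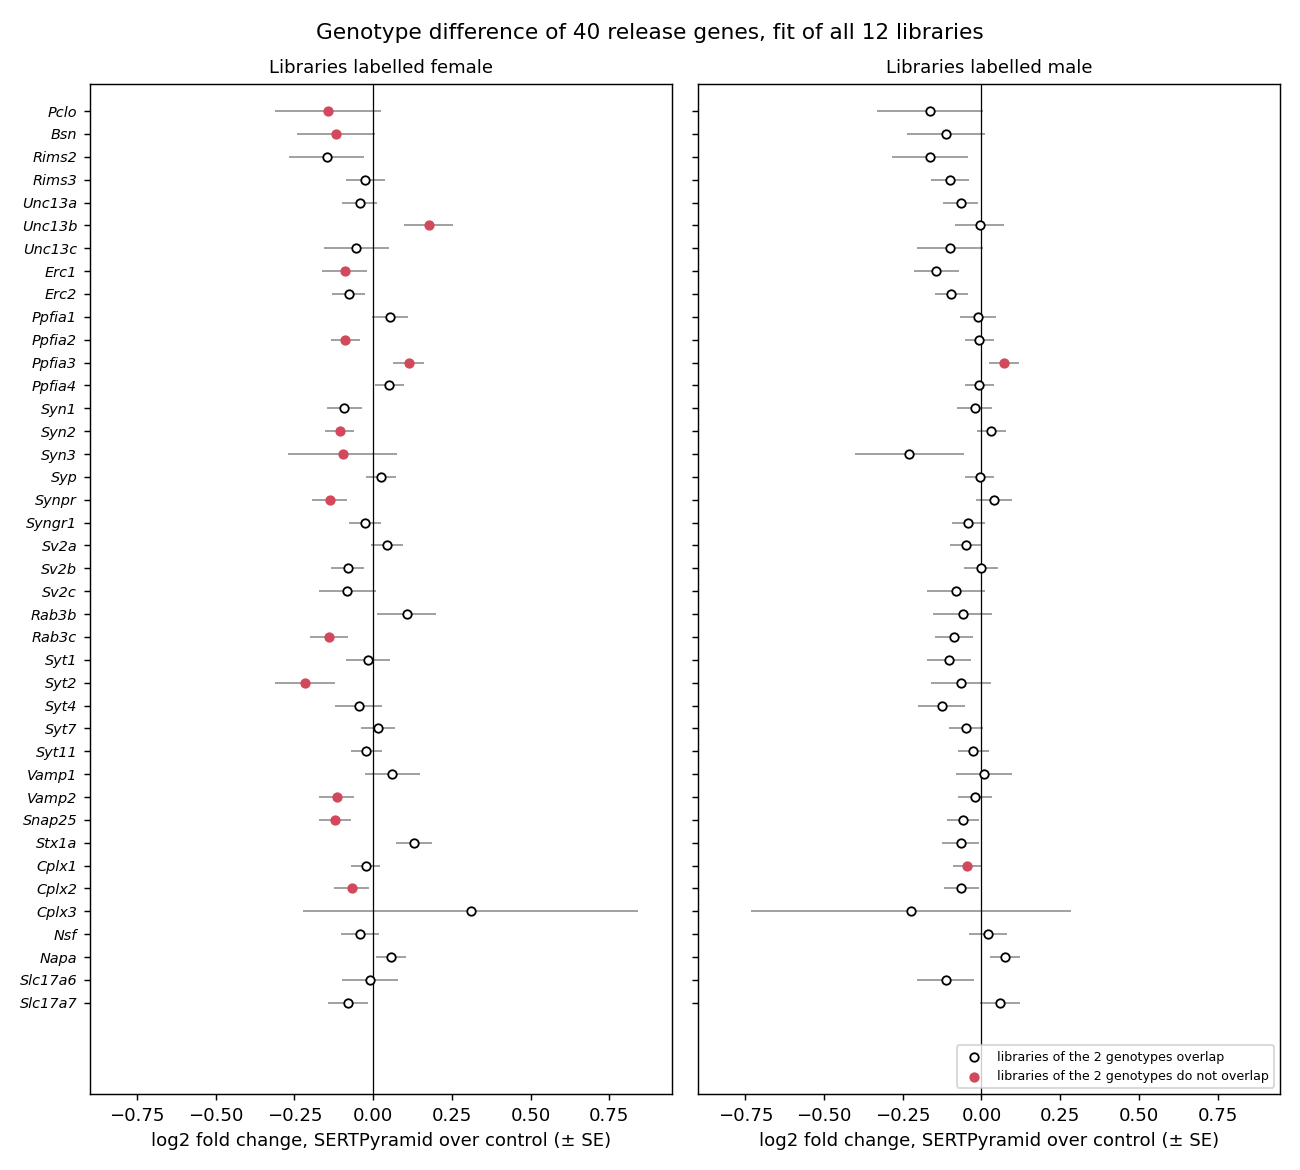
Log2 fold change of SERTPyramid over control for 40 release genes, with bars of 1 standard error, among libraries labelled female (left) and male (right); filled points mark genes whose libraries did not overlap between genotypes. Values lie mostly left of 0 in both panels (28 and 33 of 40), with 14 filled points on the left and 2 on the right.

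Among active zone genes, 9 of 13 had log2 fold changes below 0 in libraries labelled female, with a median of -0.05. Pclo (chr5:14514918-14863459, plus strand) encodes piccolo, a very large scaffold that organises the vesicle cluster. It stood at 309.7, 299 and 307 CPM in the controls and at 279.7, 279 and 271 CPM in SERTPyramid. The controls were all higher, and the gap between the genotypes was wider than the range within either, with means of 305 ± 5.40 and 276 ± 5.05 CPM (SD, n = 3). The log2 fold change was -0.14 ± 0.17 (SE; edgeR adjusted p = 0.869) in the fit of all libraries, whose estimate of spread also draws on the libraries labelled male, where Pclo had SDs of 50.3 and 57.6 CPM.

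With the libraries labelled female fitted alone, 2 members passed the threshold, 1 in each direction, where 2.43% of 17108 genes did so (1.65% higher and 0.777% lower). Pclo fell by 0.14 on the log2 scale (SE 0.04, edgeR adjusted p = 0.0364), and DESeq2 (adjusted p = 0.0136) and limma voom (adjusted p = 0.0384) called it too. The call rested on nearly every library: by edgeR it was kept without SERTPyramid replicate 1 (adjusted p = 0.0354) and lost without control replicate 1 (0.107), 2 (0.0960) or 3 (0.136), or without SERTPyramid replicate 2 (0.147) or 3 (0.0875). At an unadjusted p under 0.05 this fit gave 3 members higher and 11 lower, beside 7.46% and 6.48% of all genes. Control replicate 1 alone in this fit had almost no Y-linked transcripts (20646 Xist and 1 Y-linked count). The other libraries labelled female had 2849 to 3151 Y-linked counts. Only the fit without control replicate 1 compared libraries that all held Y-linked transcripts, and it called 0 members. The part of sex in these calls was not tested.

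Unc13b (chr4:43058953-43264871, plus strand) encodes Munc13-2, a factor that primes vesicles. It was the member that rose with all libraries labelled female fitted alone. Its CPM was 62.7, 62.8 and 70.0 in controls labelled female and 74.8, 73.2 and 72.9 in SERTPyramid. All 3 SERTPyramid values were above the highest control, and control replicate 3 lay nearer to them than to its own group. The log2 fold change was 0.18 ± 0.05 (edgeR adjusted p = 0.0364), but DESeq2 (adjusted p = 0.0806) and limma voom (adjusted p = 0.0764) did not call it. By edgeR the call was lost without control replicate 1 (adjusted p = 0.184) or 2 (0.195), or without SERTPyramid replicate 1 (0.0741) or 2 (0.129), and kept without control replicate 3 (0.00771) or SERTPyramid replicate 3 (0.0418). Unc13a, the main priming factor at excitatory terminals, was at 502, 492 and 494 CPM in those controls and at 472, 493 and 480.5 CPM in SERTPyramid, with overlap.

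Ppfia3 encodes liprin-alpha-3, a scaffold that links the active zone to vesicle priming. It stood at 248, 247 and 245 CPM in controls labelled female and at 248, 274 and 278 CPM in SERTPyramid. The lowest SERTPyramid library lay only just above the highest control (247.9 against 248.2 CPM at 1 decimal), so the absence of overlap rests on a margin far below the spread. Its log2 fold change was 0.11 ± 0.05 (edgeR adjusted p = 0.576) over all libraries. Fitted alone it was not called (edgeR adjusted p = 0.182), but it was without SERTPyramid replicate 1 (adjusted p = 0.0192). Leaving out any other single library gave no call, and neither did DESeq2 or limma voom. Among libraries labelled male, Ppfia3 was at 249, 250.2 and 257 CPM in controls and at 260.1, 264 and 270.2 CPM in SERTPyramid, again without overlap, with a log2 fold change of 0.07 ± 0.05 (edgeR adjusted p = 0.999). It was the only member with all SERTPyramid libraries above all controls in both labelled sexes. Over all genes the shares were 9.48% in libraries labelled female and 3.66% in libraries labelled male. The share of all genes above in both was not counted.

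Bsn encodes bassoon, the partner scaffold of piccolo. In libraries labelled female it had 509.7, 488 and 479.7 CPM in controls and 452, 464 and 445 CPM in SERTPyramid, with no overlap and a log2 fold change of -0.12 ± 0.12 (edgeR adjusted p = 0.852). Erc1, an ELKS scaffold, had 208, 205 and 203 CPM against 190.4, 195 and 194 CPM there, again without overlap. Its relative Erc2 had 295, 313 and 305 CPM against 281, 285 and 299 CPM, with 1 SERTPyramid library inside the control range. Rims2, which tethers calcium channels near the vesicles, had a log2 fold change of -0.15 ± 0.12 with overlapping libraries, and Rims3 one of -0.02 ± 0.06.

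Among vesicle proteins, 8 of 11 lay below 0 in libraries labelled female, with a median of -0.08. Rab3c, a small GTPase that rides on vesicles (chr13:110054187-110280996, minus strand), stood at 385, 368 and 378 CPM in controls and at 330.4, 339 and 357 CPM in SERTPyramid. Every control was above every SERTPyramid library, with means of 377 ± 8.91 and 342 ± 13.4 CPM. The log2 fold change was -0.14 ± 0.06 (edgeR adjusted p = 0.577) over all libraries. Fitted alone, Rab3c just missed the threshold (edgeR adjusted p = 0.0547). DESeq2 called it (adjusted p = 0.0301), and so did edgeR with a replicate block (adjusted p = 0.0248) or without SERTPyramid replicate 3 (adjusted p = 0.0124). Limma voom did not call it, nor did edgeR when any other single library was left out.

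Syn2, synapsin 2, had 505, 481 and 461 CPM in controls labelled female and 443, 446 and 455 CPM in SERTPyramid, and Synpr, synaptoporin, a vesicle protein rich in mossy fibre terminals, had 62.7, 61.0 and 57.3 CPM against 56.9, 52.0 and 55.4 CPM. Neither gene overlapped between genotypes, though in each the highest SERTPyramid library lay close to the lowest control. Log2 fold changes were -0.11 ± 0.05 for Syn2 and -0.14 ± 0.06 for Synpr (edgeR adjusted p = 0.576 and 0.568, the second being the smallest of any member over all libraries). In libraries labelled male the same genes had values of 0.03 ± 0.05 and 0.04 ± 0.06 with overlap. Syn1 and Syp, synaptophysin, the most abundant vesicle members per length, overlapped in both labelled sexes, with log2 fold changes of -0.09 ± 0.06 and 0.03 ± 0.05 in libraries labelled female. Of the SV2 glycoproteins, Sv2a was at 0.04 ± 0.05, Sv2b at -0.08 ± 0.05 and Sv2c at -0.08 ± 0.09 there, all overlapping.

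Of the 5 synaptotagmins, 4 lay below 0 in libraries labelled female and all 5 in libraries labelled male. Syt2 had 12.9, 12.7 and 13.4 CPM in controls labelled female and 11.7, 10.7 and 11.2 CPM in SERTPyramid. The groups did not overlap, and the log2 fold change of -0.22 ± 0.09 (edgeR adjusted p = 0.591) was the lowest of any member in that comparison. Syt1 overlapped widely, at 779.9, 789 and 799.9 CPM against 716, 796 and 829.5 CPM, and Syt11 and Syt7 had log2 fold changes of -0.02 ± 0.05 and 0.02 ± 0.05. Syt4, a synaptotagmin of dense-core vesicles, was among the members with the smallest p in libraries labelled male, at 186, 204 and 198 CPM in controls against 165, 187 and 188 CPM, with a log2 fold change of -0.13 ± 0.07 (edgeR adjusted p = 0.999).

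Of the 9 SNARE genes and regulators, 5 lay below 0 in libraries labelled female. Snap25, the plasma membrane SNARE with a pair of helices, had 616, 612 and 611 CPM in the controls and 529, 559 and 603 CPM in SERTPyramid. The controls were nearly identical, the SERTPyramid libraries ranged widely, and none reached the controls; the log2 fold change was -0.12 ± 0.05 (edgeR adjusted p = 0.569). Fitted alone it was not called (edgeR adjusted p = 0.151), but it was without SERTPyramid replicate 3 (adjusted p = 0.00777). Leaving out any other single library gave no call for Snap25, and neither did DESeq2 or limma voom. Its partner on the vesicle, Vamp2, had 1171, 1176 and 1152 CPM against 1014, 1063 and 1151 CPM, with a log2 fold change of -0.12 ± 0.06; SERTPyramid replicate 3 lay less than 1 CPM below the lowest control.

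Stx1a, syntaxin 1A, the other plasma membrane SNARE, went the other way: 201, 222 and 217 CPM in controls labelled female against 219, 233 and 248 CPM in SERTPyramid, with overlap and a log2 fold change of 0.13 ± 0.06 (edgeR adjusted p = 0.591). Cplx2 was at 1369.6, 1369 and 1371 CPM in those controls and at 1276, 1296 and 1347 CPM in SERTPyramid, without overlap, at -0.07 ± 0.06. Cplx1 and Nsf, the ATPase that recycles SNAREs, overlapped at -0.02 ± 0.05 and -0.04 ± 0.06. Napa, which encodes alpha-SNAP, had values of 0.06 ± 0.05 in libraries labelled female and 0.07 ± 0.05 in libraries labelled male.

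The glutamate transporters showed no separation. Slc17a7 had 1332, 1212 and 1149 CPM in controls labelled female against 1107, 1145 and 1244 CPM in SERTPyramid, a log2 fold change of -0.08 ± 0.06, and 0.06 ± 0.06 in libraries labelled male. Slc17a6 had log2 fold changes of -0.01 ± 0.09 and -0.11 ± 0.09.

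**Figure D3:**
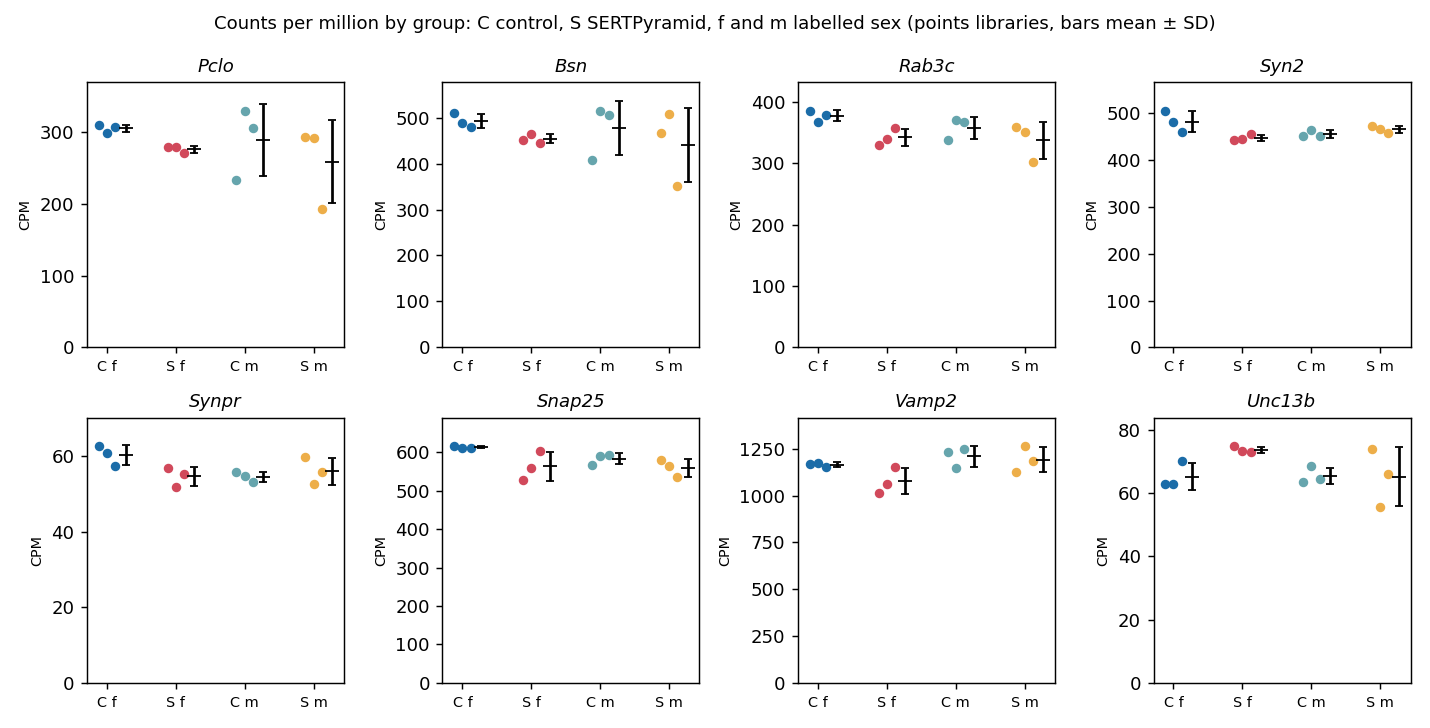
CPM of 8 release genes in each library (points), with the group mean and SD beside them, for control (C) and SERTPyramid (S) labelled female (f) or male (m); each axis starts at 0. Controls labelled female lie above SERTPyramid for every gene but Unc13b, by margins that are small beside the level, and the libraries labelled male overlap for all 8.

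Among libraries labelled male, no member was called (background 0.0%) by edgeR, DESeq2 or limma voom, and at an unadjusted p under 0.05 edgeR gave 0 members, beside 3.16% of all genes; with those libraries fitted alone it again gave 0 called (0.0%) and 0 at that unadjusted p, beside 1.86%. All SERTPyramid libraries lay above all controls for 1 member, Ppfia3, and below for 1, Cplx1, beside 3.66% and 3.26% of all genes. Log2 fold changes lay below 0 for 33 of 40 members, with a median of -0.05 and 12 of 13 active zone genes on that side, where 49.5% of all genes lay below 0. Single libraries moved that median: without SERTPyramid replicate 3 labelled male it was -0.0036, and without control replicate 3 labelled male -0.029. The smallest p of the members belonged to Erc1, at 184, 215 and 206 CPM in controls and 186, 203 and 159 CPM in SERTPyramid, with a log2 fold change of -0.14 ± 0.07 (edgeR adjusted p = 0.999). SERTPyramid replicate 3 was the lowest of the 6, and the others overlapped. Erc2 followed at -0.10 ± 0.05 and Rims3 at -0.10 ± 0.06.

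The interaction, the difference among libraries labelled female minus that among libraries labelled male, was past the adjusted threshold for no member (background 0.0%; smallest edgeR adjusted p = 0.999) by edgeR, DESeq2 or limma voom. Values lay below 0 for 15 of 40 members, with a median of 0.02, where 49.0% of all genes lay below 0; leaving out SERTPyramid replicate 3 labelled male gave a median of -0.039, and leaving out control replicate 2 of that sex gave -0.0020. At an unadjusted p under 0.05 by edgeR, 1 member was above 0 and 2 below, beside 2.01% and 2.44% of all genes. Stx1a was the 1 above, at 0.20 ± 0.08; in libraries labelled male it had 231, 222 and 226 CPM in controls and 201, 216 and 232 CPM in SERTPyramid, so its difference had opposite signs in the labelled sexes, with overlap in both. Synpr at -0.18 ± 0.08 and Syn2 at -0.14 ± 0.06 were the 2 below. Unc13b had an interaction of 0.18 ± 0.11, Slc17a7 of -0.14 ± 0.09 and Sv2a of 0.09 ± 0.07. Among libraries labelled male Unc13b was at 63.6, 68.4 and 64.3 CPM in controls and at 73.9, 55.6 and 66.1 CPM in SERTPyramid, whose 3 values enclosed the controls.

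Averaged over both labelled sexes, 30 of 40 members lay below 0, with a median of -0.05, beside 50.7% of all genes; this average uses the same libraries as the comparisons above. Leaving out SERTPyramid replicate 3 labelled male gave a median of -0.027, and leaving out SERTPyramid replicate 1 labelled female gave -0.031. No member was called (background 0.0%) by edgeR, DESeq2 or limma voom, and at an unadjusted p under 0.05 by edgeR 1 was higher and 4 lower, beside 3.94% and 2.56% of all genes. The higher member was Ppfia3 at 0.09 ± 0.03, and the lower were Rab3c at -0.11 ± 0.04, Snap25 at -0.09 ± 0.04, Erc2 at -0.09 ± 0.04 and Erc1 at -0.12 ± 0.05 (edgeR adjusted p = 0.756 for all 5). Syt2 was at -0.14 ± 0.07.

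Spread between libraries was uneven over the members. The median SD of log2 CPM within groups was 0.0761 over the 40 members and 0.0723 over 8019 genes with a mean of at least 20 CPM. Cplx3 at 0.721, Syn3 at 0.233, Pclo at 0.219, Rims2 at 0.171 and Bsn at 0.170 lay above the 95th percentile of those genes, 0.157. Cplx3, at a mean of 1.59 CPM, lies outside that class of genes. For the other 4, SERTPyramid replicate 3 labelled male was the lowest of the 12 libraries and lay below the mean of the 12 libraries by 0.55 for Syn3 (23.7 CPM), 0.54 for Pclo (192 CPM), 0.40 for Bsn (350.5 CPM) and 0.37 for Rims2 (28.6 CPM) on the log2 scale. Control replicate 1 labelled male came next, with Pclo at 233 CPM and Bsn at 409 CPM. The longest annotated transcript is 20084 bases for Pclo and 15938 for Bsn, and 4800 for Rims2 and 4775 for Syn3.

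Transcript length moved with the same libraries over all genes. When tested genes were split into 5 classes by longest transcript, the class of 5028 to 123179 bases held 17 members. There the median deviation was -0.09 in SERTPyramid replicate 3 labelled male and -0.05 in control replicate 1 labelled male, against 0.08 and 0.06 in the class of the shortest, which held 0 members. The median over the 40 members was -0.11 and -0.06 in those libraries and between -0.04 and 0.06 in the other 10. The part of transcript length in the members' differences was not tested.

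**Figure D4:**
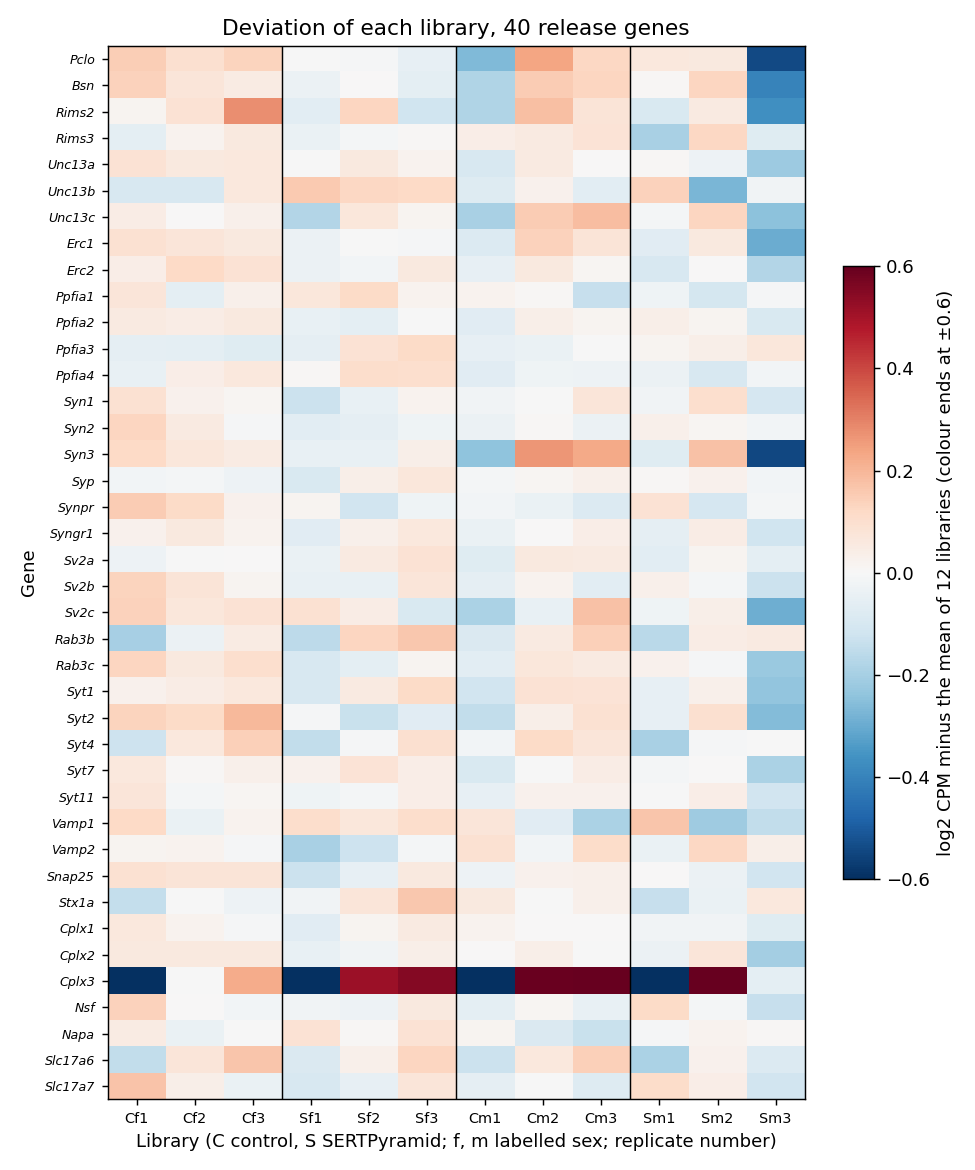
Deviation of log2 CPM from the mean of 12 libraries for 40 release genes (rows, by role) in each library (columns); blue is lower, red higher, and the colour ends at 0.6 in each direction, which Cplx3 passes. SERTPyramid replicate 3 labelled male (Sm3) is blue for most active zone genes, darkest for Pclo, and Syn3 is as dark among vesicle genes.

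Another pattern followed the replicate number in the labels rather than genotype. In 4 of 40 members the 4 libraries numbered 1 all lay below the 8 others, beside 0.539% of all genes, and in 0 members all above, beside 0.335%. Cplx3 was at 0.698 to 0.889 CPM in the libraries numbered 1 (16 to 21 counts each) and at 1.39 to 2.45 CPM in the others. Slc17a6 was at 64.1 to 69.0 against 69.2 to 82.2 CPM, Rab3b, a relative of Rab3c, at 64.9 to 70.1 against 72.8 to 83.3 CPM, and Syt4 at 165 to 186 against 187 to 207 CPM. Slc17a7, the main transporter, showed no such order. Ccn2, which like Cplx3 is a marker of cortical subplate neurons, was at 2.92 to 4.02 against 4.60 to 6.30 CPM. Ccn2 was picked with the values in view, no list of subplate markers was drawn up, and a part of such neurons was not tested. The labels do not say whether the number marks a batch or a dissection, and its part in these values was not tested; each genotype and labelled sex holds 1 library of each number.

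**Figure D5:**
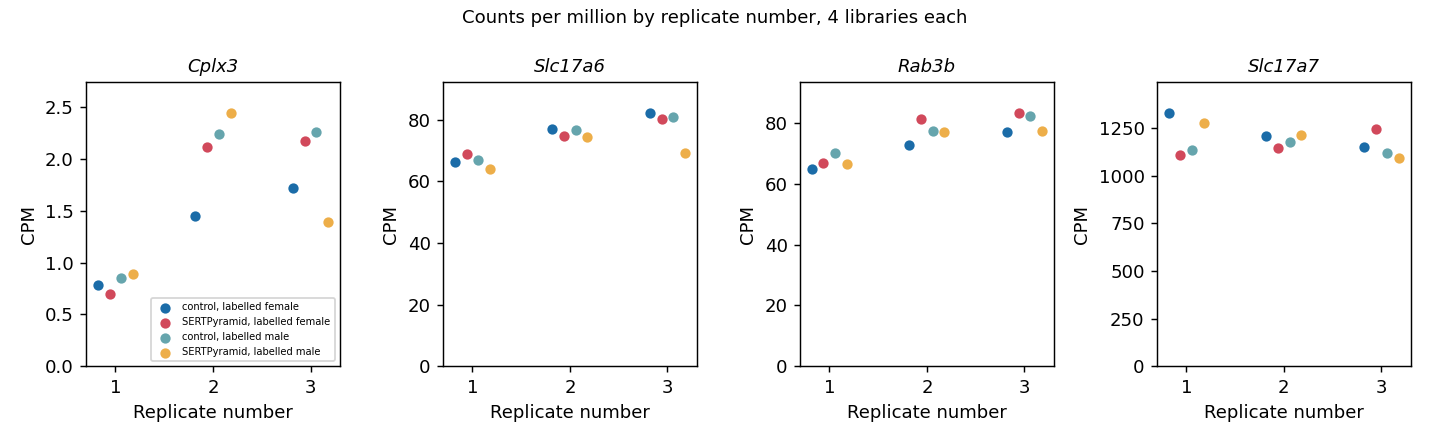
CPM of Cplx3, Slc17a6, Rab3b and Slc17a7 by the replicate number in the labels, with 4 libraries per number coloured by group and axes from 0. The libraries numbered 1 are the lowest 4 for the first 3 genes, and Slc17a7 shows no such split.

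A further 61 presynaptic genes that are not members (endocytosis, scaffold, Rab and SNARE cofactor genes) were set beside the members, with 60 tested. In libraries labelled female 46 of 60 lay below 0 with a median of -0.04, 0 were called by edgeR and 1 was higher and 8 lower at an unadjusted p under 0.05, beside 4.32% and 3.72% of all genes; in libraries labelled male 37 lay below 0 with a median of -0.01. The smallest p over all libraries labelled female were those of Vamp3 (-0.20 ± 0.06), Cadps2 (-0.15 ± 0.05), Rab5a (-0.17 ± 0.06) and Bin1 (0.15 ± 0.05), all with an edgeR adjusted p of 0.530. With the libraries labelled female fitted alone, 4 of the 60 passed by edgeR, beside 2.43% of all genes: Stxbp2, a Munc18 relative, rose by 0.42 (adjusted p = 0.00338) and Bin1, an amphiphysin, by 0.15 (0.0376), while the scaffold Cask fell by 0.15 (0.0426) and Cadps2, a factor for dense-core vesicles, fell by 0.15 (0.0498).

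Marker lists of many cell types were also summed, with no test of the sums. In libraries labelled female, 4 of these sums did not overlap between genotypes. Beside this, 9.48% of all single genes tested lay wholly higher there and 9.38% wholly lower. These shares hold for single genes, and the share for sums of several genes was not counted. Among libraries labelled female, the summed CPM of 10 dentate granule markers was 825 to 914 in controls and 769 to 810.0 in SERTPyramid, with 9 of 10 log2 fold changes below 0, and that of 12 endothelial markers was 380.4 to 400.5 against 341 to 379, with 12 of 12 below 0. The 8 red blood cell markers summed to 59.3 to 68.3 CPM against 44.7 to 56.5, with 5 of 6 tested below 0. The summed level of 9 oligodendrocyte precursor markers was higher, at 753 to 767 CPM against 712 to 751. Sums of 14 pan-neuronal markers overlapped, at 10230.2 to 10790.3 CPM in controls and 10049 to 10946 CPM in SERTPyramid, as did those of 13 pyramidal markers, at 1788 to 1823 and 1704 to 1841 CPM. The 12 choroid plexus markers, all below 0, summed to 1107 to 1473 CPM in controls and 74.2 to 1396 CPM in SERTPyramid. Sums for interneurons, Cajal-Retzius cells, immature neurons, astrocytes, oligodendrocytes, microglia, mural cells, meningeal fibroblasts and ependymal cells overlapped as well. In libraries labelled male all of these sums overlapped between genotypes. The part of these cells in the members' values was not tested.

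Rims1 and Rab3a were listed at or near 0, and no level was read from them beyond their place in the members' median level. Rims1 had 42 counts over all libraries, 28 of them in SERTPyramid replicate 2 labelled male, while the nearest well-counted genes on either side, Kcnq5 and Ogfrl1, had means of 2122 and 2052 counts. Rab3a had 0 to 2 counts per library, 7 in all. It lies in a run of 10 protein-coding genes from Jund to Arrdc2 (chr8:70698949-70839720) whose mean counts were all 2.17 or less, between Lsm4 at 98.9 and Kcnn1 at 515. An exact two-sided permutation test of genotype within labelled sex gave p = 0.89 for Rims1 and 0.515 for Rab3a (smallest possible 0.005), at counts too low to show a difference. Counting reads that fall in exons shared by overlapping genes limits some other members. The exons of Ppfia2 share 2436 bases with Acss3, those of Erc1 1919 bases with the antisense gene Gm44317, and those of Syn3 1733 bases with Timp3. These partners lie on the opposite strand, and without strand their reads cannot be told apart.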

How the data were processed

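Libraries were made with the TruSeq RNA Library Prep Kit v2, per the labels' protocols, which does not mark strand. The authors deposited 1 table of raw read counts per Ensembl gene, named as htseq output, for 12 libraries; the genome build was mm10 (GRCm38), per the submitters' processing notes, and the aligner and annotation were not given in the sources used here. Of 52634 gene IDs, 52401 matched a symbol and 52487 the GENCODE M21 annotation (mouse release 21), which gave exon lengths and coordinates; 0 rows named no gene.

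Genes were filtered with edgeR's filterByExpr (17631 kept), scaled by TMM and tested with edgeR 4.0.16's robust quasi-likelihood F-test over the 4 groups, at a Benjamini-Hochberg adjusted p of 0.05 over all genes tested. RPKM used library totals and union exon length. The scripts' tests were checked on simulated data. DESeq2 1.42.0, limma 3.58.1 (voom with quality weights), another scaling, other filters, a replicate block, each labelled sex alone and leaving out each library were the alternatives. Named genes were members past the threshold in any contrast or in the fit of 1 labelled sex, the 6 with the smallest p per contrast, the highest per role, and the Cplx, Vamp and Slc17a families for levels; others are given by role, or, where named, were chosen for their role or after their values were seen. The members and lists were chosen with earlier results of these data known. Precision is limited by 3 pools per group. A floor of 3 counts per gene was set for every library, which is 0.118 to 0.160 unscaled CPM at these depths (18747249 to 25522347 counts). Of the marker lists, 1 gene is not reported here.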

Additional observations from a re-analysis of the deposited data

How the results depend on the processing

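In the fits of all 12 libraries, no alternative called a member in any of the 4 contrasts, and of 634 alternative values for single named members 620 kept their direction and side of the threshold, 14 passed it where the reported fit did not, and 0 reversed. Fitting the libraries labelled female alone called 2 members with edgeR, 2 with DESeq2 and 1 with limma voom, and leaving out 1 library there gave 0 to 4. Over all genes the count for libraries labelled female was 0 in the reported fit, 1 with DESeq2, 103 without a filter on low counts and 0 to 2 with 1 library left out; alone it was 415 with edgeR, 336 with DESeq2, 379 with limma voom and 136 to 464 with 1 library left out (251, 158 and 280 without control replicate 1, 2 or 3; 464, 136 and 400 without SERTPyramid replicate 1, 2 or 3). Without the filter, 5 genes passed in libraries labelled male, 14 for the interaction and 66 for the mean; DESeq2 called 1 for the interaction. Leaving out SERTPyramid replicate 2 labelled male gave 144 genes for the mean (0 to 144 over all libraries) and 2 for libraries labelled female. Leaving out each library moved the members' median from -0.063 to -0.016 in libraries labelled female (-0.067 to -0.018 when fitted alone), the end nearest 0 coming without SERTPyramid replicate 1, from -0.079 to -0.0036 in libraries labelled male (-0.082 to -0.0013 when fitted alone) and from -0.039 to 0.055 for the interaction, the end nearest 0 for libraries labelled male and the end below 0 for the interaction coming without SERTPyramid replicate 3 labelled male. The median level over all 42 members, Rims1 and Rab3a included, was 42.3 RPKM with the longest transcript as length, which also changed the order of levels. The cause of these differences was not tested.

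Over all genes at once, same-numbered libraries showed no common pairing. Deviations of same-numbered libraries correlated from -0.23 to 0.23 over 18 pairs, 2 of them above 0.1. Of 12 libraries, 2 correlated best with their own number. These correlations do not speak for single members, 4 of which followed the replicate number. With the replicate block, 0 members and 0 genes passed in the fit of all libraries, and 4 members and 689 genes with the libraries labelled female alone. Without the block, that last fit gave 2 members and 415 genes. In the fit of all libraries, the block took the labelled-male SE from 0.0937 to 0.0470 for Rab3b and from 0.0895 to 0.0520 for Slc17a6. That SE went from 0.0741 to 0.0471 for Syt4 and from 0.508 to 0.231 for Cplx3, but rose from 0.168 to 0.178 for Pclo. With the block, Syt4 and Erc1 had edgeR unadjusted p of 0.0148 and 0.0440 there, and neither passed the adjusted threshold. The share of all genes at an unadjusted p under 0.05 with the block was not counted, so these values have no background beside them.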
